A study of Homo sapiens with 18 samples.

Results

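The peaks found only in xxChIP H1.5 are stretches of the HL-60/S4 genome that the anti-H1.5 antibody enriched when it was applied to intact, permeabilized cells, and where none of the other 3 peak lists of the series has a peak. They were chosen by a rule on the peak lists themselves: peaks of the xxChIP H1.5 list on chromosomes 1 to 22 and X, shorter than 20000 bp, that share no base with a peak of the xxChIP H1.2, xChIP H1.2 or xChIP H1.5 lists. The rule selected 23883 of the 136715 xxChIP H1.5 peaks under 20000 bp, or 17.5% (95% Wilson interval 17.3 to 17.7, counting error only), out of 138491 peaks in that list.

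HL-60/S4 is a human myeloid leukemic cell line, and all samples were undifferentiated cells with no treatment, fixed with formaldehyde and permeabilized. The series holds 18 samples, of which 12 were immunoprecipitated (3 for either antibody, H1.2 or H1.5, under either protocol, xChIP or xxChIP) and 6 were Input, which is not used here. In xChIP the once-fixed chromatin was sonicated and then met the antibody; in xxChIP the antibody was bound inside the fixed cells, a second fixation locked it in place, and only then was the chromatin sonicated. Each deposited list is the merge of the peaks of its 3 replicates and gives positions alone. Neither the height of a peak, nor the depth behind it, nor the spread between replicates can therefore be given. A peak called in a single replicate can enter a list.

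H1.2 and H1.5 are linker histones, which bind the nucleosome near the entry and exit of its DNA and the linker beyond, and help to compact chromatin. The somatic isotypes share a globular domain and differ mostly in their tails. Both antibodies were rabbit polyclonals against the N-terminal part of the protein, so a peak marks where an epitope could be reached and pulled down; the absence of a peak from a list cannot be told apart from an epitope that was present and covered, or from enrichment under the caller's threshold.

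The stretches printed next show what these peaks are made of. Each is 200 bases about the midpoint of a peak, on the plus strand of GRCh37 (whose chromosome lengths are those of hg19), with CpG dinucleotides in capitals; they are the peaks of 1000 to 3000 bp with the middle and the highest GC content, and the longest peak with its midpoint in a promoter.
Middle GC content, chr10:6539124-6539323: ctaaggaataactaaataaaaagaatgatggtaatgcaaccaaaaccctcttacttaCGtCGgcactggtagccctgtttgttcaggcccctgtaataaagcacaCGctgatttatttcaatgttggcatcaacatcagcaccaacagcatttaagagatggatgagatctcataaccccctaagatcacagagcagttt
Highest GC content, chr6:170555949-170556148: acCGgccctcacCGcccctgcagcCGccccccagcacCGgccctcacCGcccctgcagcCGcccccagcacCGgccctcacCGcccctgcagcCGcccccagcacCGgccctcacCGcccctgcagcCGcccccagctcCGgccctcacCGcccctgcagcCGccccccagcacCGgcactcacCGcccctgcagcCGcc
Longest peak in a promoter, chr19:43529878-43530077: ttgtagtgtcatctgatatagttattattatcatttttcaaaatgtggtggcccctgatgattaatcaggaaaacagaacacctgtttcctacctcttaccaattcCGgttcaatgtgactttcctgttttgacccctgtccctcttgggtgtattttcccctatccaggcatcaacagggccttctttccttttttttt

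The peak in the middle of the range, chr10:6537971-6540477, lies in an intron of PRKCQ, a protein kinase C of T cells, and has 41.6% GC. The GC-rich extreme, chr6:170555314-170556784, is an intergenic tandem repeat 43.7 kb from FAM120B, with 73.7% GC and 18 CpG in its window. The promoter peak, chr19:43525530-43534427, covers the start of PSG11, a pregnancy-specific glycoprotein gene. Over all of the peaks, 90% had a GC content between 34.1% and 50.8%.

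The peaks were short. Their median length was 1780 bp, from 322 to 19822 bp, with 80% between 1118 and 3938 bp, against a median of 2092 bp for the other xxChIP H1.5 peaks; a short peak has less room to meet another list, so this difference follows in part from the rule. In all they covered 54.0 Mb, or 1.90% of the known sequence. The limits of the rule can be read from the peaks beside them. At the length limit, 3 further peaks in no other list measured 20011, 22148 and 24400 bp and stayed outside, while the longest inside were 19822 and 19267 bp. At the overlap limit, 5 peaks touched a peak of another list with no base between and 404 lay 1 to 100 bases from one, whereas 714 peaks stayed outside although other lists covered only 1 to 100 of their bases.

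The median gap to the nearest peak of any other list was 2908 bp, 14.8% of the peaks lay under 1000 bp from one, and 4.27% lay at least 10000 bp away. By list the median gap was 5915 bp to xxChIP H1.2, 6083 bp to xChIP H1.2 and 6902 bp to xChIP H1.5. The most isolated peak, chrX:96384421-96386020, had 39901 bp on its nearer side and lay in an intron of DIAPH2, a formin gene that acts on actin. The next were in introns of NCKAP5 (37160 bp) and of TTN, the muscle protein titin (36104 bp). Along the xxChIP H1.5 list, 60.2% of the peaks stood between neighbours that were shared with another list, and 13.9% fell in runs of at least 3. The peaks made up 17.5% of the list's peaks under 20000 bp. What a random order at that share would give was not computed, so neither scatter nor clustering is claimed. The longest run held 9 peaks in 178 kb at chrX:15684214-15861813. A run of 7 lay at chr5:88259106-88346755, beyond the 5′ end of MEF2C, a transcription factor of myeloid and muscle cells. The surrounding window of 1 Mb had the highest share among the 10 windows with most such peaks, 22 of 37 (59.5%). It also held the fewest xxChIP H1.5 peaks of the 10, where the others had 51 to 73.

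How the remaining xxChIP H1.5 peaks fell shows what the unshared ones are being set against. Among peaks under 20000 bp, 36624 (26.8%) shared a base with xxChIP H1.2 alone, 14465 (10.6%) with xChIP H1.2 alone, 5594 (4.09%) with xChIP H1.5 alone and 15320 (11.2%) with all 3 other lists. Their GC content ranged widely, from 38.4% where xxChIP H1.2 and xChIP H1.5 both had a peak to 44.1% where xChIP H1.2 alone did, with the unshared peaks between at 41.6%. By the same rule the other lists gave 27491 peaks found only in xxChIP H1.2 (19.6% of its short peaks), 32735 only in xChIP H1.5 (23.7%) and 39484 only in xChIP H1.2 (28.9%).

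The base composition of the unshared peaks was compared with 3 sets: the other xxChIP H1.5 peaks, the peaks found only in xxChIP H1.2 (same protocol, other isotype) and the peaks found only in xChIP H1.5 (same isotype, other protocol). The difference was taken on each of 23 chromosomes and tested by a two-sided sign-flip permutation over chromosomes, with Benjamini-Hochberg adjustment over all 18 tests. The chromosomes come from the same merged peaks and cannot stand in for cultures, so these p-values speak of how evenly a difference ran over the genome and not of how it would repeat in another culture.

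The peaks found only in xxChIP H1.5 were richer in G and C than each of the 3 sets. They were not the richest by this rule. The peaks found only in xChIP H1.2, which were not among the sets tested, averaged 45.1% GC and 13.8 CpG per kb. Mean GC content was 41.6% in the peaks found only in xxChIP H1.5 (SD over peaks 5.18), against 40.5% in the other xxChIP H1.5 peaks. The mean difference over chromosomes was 1.14 ± 0.390 percentage points (SD, n = 23 chromosomes), higher on 23 of 23 (permutation adjusted p = 2e-05, from a p of 1e-05, the smallest the 100000 resamples can give). In peaks of 1000 to 3000 bp the difference fell to 0.546, and against the peaks shared with xxChIP H1.2 alone it was 2.52, or 2.15 in that length range. Against the peaks found only in xxChIP H1.2, at 40.6%, it was 0.978 ± 0.353, again on 23 of 23 chromosomes (permutation adjusted p = 2e-05). Against the peaks found only in xChIP H1.5, at 38.8%, it was 2.37 ± 1.29 on 21 of 23, with chromosomes 19 and 22 the other way (permutation adjusted p = 2e-05). For the central 200 bp alone that last difference was 0.937 (permutation adjusted p = 0.0036).

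**Figure D1:**
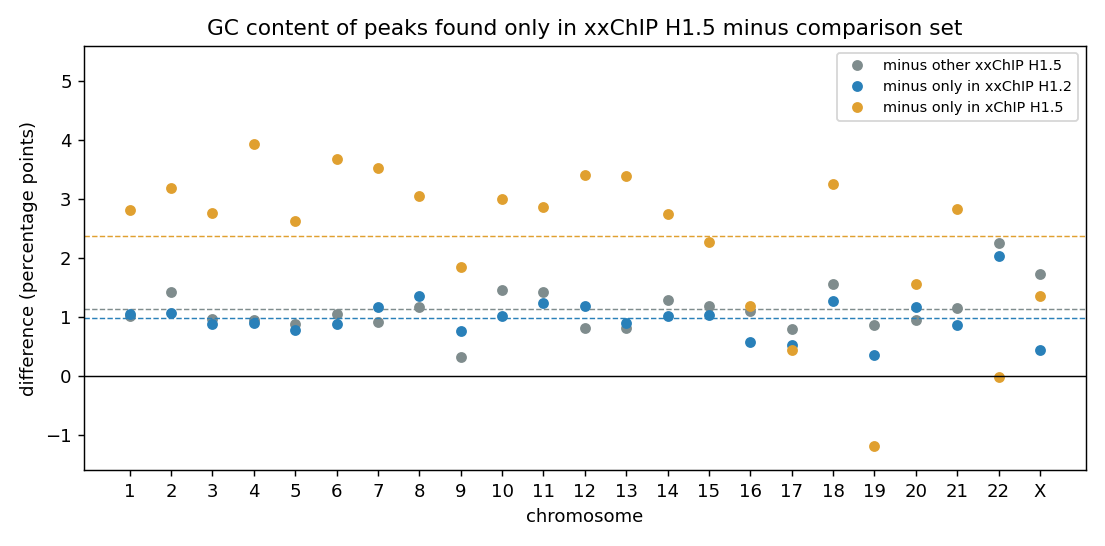
GC content of the peaks found only in xxChIP H1.5 minus that of each comparison set, in percentage points, per chromosome; points are chromosomes, dashed lines the means over 23 chromosomes. Grey and blue points all lie above 0, with means of 1.14 and 0.978, while the orange points (peaks found only in xChIP H1.5) average 2.37 and fall below 0 on chromosomes 19 and 22.

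GC content was not even along a peak. In windows of 100 bp about the midpoint, GC content had 2 shoulders at 500 to 600 bp on either side, at 41.9%, around a lower centre of 40.1%. The lowest value, 39.9%, stood at 1600 to 1700 bp. With a median length of 1780 bp, most of the peaks end before that distance, so this value is mostly of flanking sequence. Aligned on their 2 ends, the peaks had 45.4% GC at 100 to 200 bp inside the end and 39.1% at 200 to 300 bp outside it. The same border stood at 44.2% in the other xxChIP H1.5 peaks and 44.5% in the peaks found only in xxChIP H1.2, so the GC-rich border was shared by the 3 xxChIP sets. The peaks found only in xChIP H1.5 had no such border: their GC content was 38.8% at 100 to 200 bp inside and 39.8% at 200 to 300 bp outside. These profiles are described with no test.

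**Figure D2:**
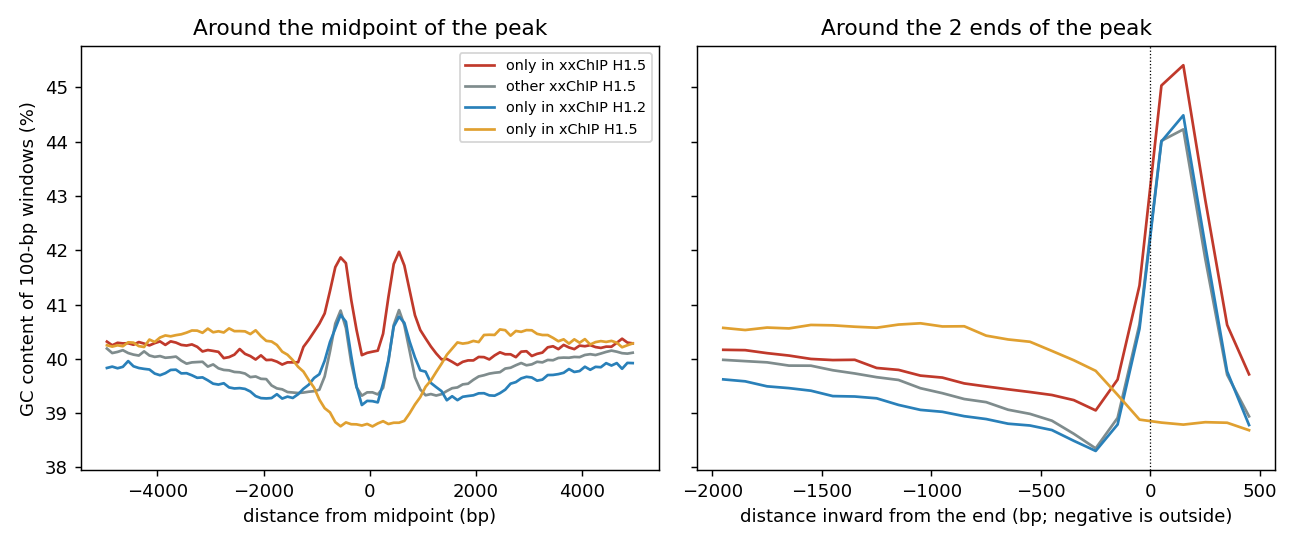
Mean GC content of 100-bp windows by distance from the midpoint (left) and by distance inward from each end (right, peaks of at least 1000 bp), in bp. All 3 xxChIP sets rise just inside their ends, the peaks found only in xxChIP H1.5 highest at 45.4%, while the peaks found only in xChIP H1.5 stay near 38.8%.

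GC content was lower in longer peaks of the xxChIP sets. Peaks found only in xxChIP H1.5 of 1000 to 1500 bp averaged 42.9% GC (SEM over peaks 0.0551, 8277 peaks) and those of 5000 to 10000 bp averaged 40.0% (0.140, 1135 peaks). The other xxChIP H1.5 peaks went from 42.3% to 38.6% over the same classes, so the gap between the sets widened with length. The peaks found only in xChIP H1.5 went from 38.9% to 38.01%. Around the peaks, the 10000 bp on each side had 40.2% GC for the peaks found only in xxChIP H1.5 and for those found only in xChIP H1.5, 40.1% for the other xxChIP H1.5 peaks and 39.8% for the peaks found only in xxChIP H1.2. With these surroundings subtracted, the difference from the peaks found only in xxChIP H1.2 fell from 0.978 to 0.5996 percentage points (permutation adjusted p = 2e-05). That from the other xxChIP H1.5 peaks went from 1.14 to 1.05. That from the peaks found only in xChIP H1.5 rose from 2.37 to 2.66 (permutation adjusted p = 2e-05 for both).

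**Figure D3:**
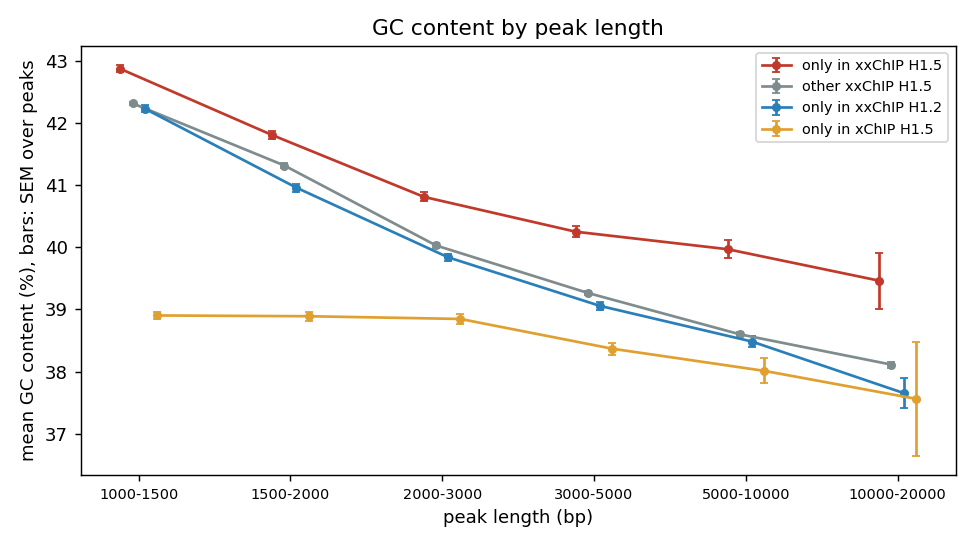
Mean GC content (%) by length class (bp) in the 4 sets, with bars for the SEM over peaks. The peaks found only in xxChIP H1.5 lie above the other 3 sets in each class, from 42.9% in the shortest to 39.5% in the longest, where only 80 of them remain.

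CpG dinucleotides, the sites of DNA methylation, followed in part. They numbered 9.88 per kb against 9.21 in the other xxChIP H1.5 peaks (0.686 ± 0.384 more, on 22 of 23 chromosomes, permutation adjusted p = 2e-05), but the difference was lost in peaks of 1000 to 3000 bp (0.0610, permutation adjusted p = 0.656). Against the peaks shared with xxChIP H1.2 alone it was 2.06 per kb, and 1.71 in peaks of 1000 to 3000 bp (permutation adjusted p = 2e-05 for both). Against the peaks found only in xxChIP H1.2, at 9.31 per kb, it was 0.525 ± 0.430 on 22 of 23 (permutation adjusted p = 7.5e-05). Against the peaks found only in xChIP H1.5, at 8.39 per kb, it was 1.03 ± 1.35 on 18 of 23 (permutation adjusted p = 0.003), or 1.78 with medians of peaks, and it was lost for peaks at least 1000 bp from the other lists (0.511, permutation adjusted p = 0.162).

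Among all 2080 words of 6 letters, each read with its reverse complement, the frequency in the peaks found only in xxChIP H1.5 over that in the other xxChIP H1.5 peaks ran from 0.750 to 1.60, with a median of 1.05. Of the 50 words with the highest ratios, 49 held a CG. The share of such words among all 2080 was not counted, and the sets were not matched for length. In peaks of 1000 to 3000 bp the CpG difference between these 2 sets was lost (0.0610 per kb, permutation adjusted p = 0.656). The top word, CCGCCG, stood at 0.0215 per kb against 0.0134, and at 0.0318 per kb in the peaks found only in xChIP H1.5. At the other end AAACTA was at 0.832 per kb against 1.11. These are counts in sequence that overlaps itself and are given as a description.

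Repeats of CA of at least 10 units, a simple repeat common in mammalian genomes, were read on both strands and are described with no test. They numbered 58.0 per Mb, against 45.5 in the other xxChIP H1.5 peaks, 49.3 in the peaks found only in xxChIP H1.2 and 20.6 in the peaks found only in xChIP H1.5. By chromosome the density was higher than in the other xxChIP H1.5 peaks on 21 of 23 (difference 11.8 ± 7.09 per Mb) and higher than in the peaks found only in xChIP H1.5 on 23 of 23 (36.5 ± 9.35). Density depended on length. In peaks of 1000 to 1500 bp the gap to the other xxChIP H1.5 peaks was not smaller, with 71.4 against 58.6 per Mb. In the longer classes it was smaller, as in peaks of 5000 to 10000 bp with 41.9 against 40.3. Peaks of 1000 to 3000 bp together had 64.7 against 57.1 per Mb. In the 80 peaks of at least 10000 bp the density was 34.6 per Mb, below the 40.2 of the peaks found only in xxChIP H1.2. Runs of at least 12 A or T stood at 252 per Mb, against 242, 268 and 199 in the 3 sets; in peaks of 1000 to 3000 bp the order against the other xxChIP H1.5 peaks turned, with 289.9 against 332 per Mb. GAGGAAGT, the core bound by the myeloid factor PU.1, was found on either strand at 45.9 per Mb, against 53.0, 44.9 and 50.9; it lay in 9.47% of these peaks and in 15.6% of the longer other xxChIP H1.5 peaks. A match of letters is not a bound site.

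Few of the peaks lay near gene starts: 2090 midpoints (8.75%) were within 10 kb of one, against 8.23% of the other xxChIP H1.5 peaks, 8.54% of the peaks found only in xxChIP H1.2 and 10.8% of those found only in xChIP H1.5. The midpoint fell in a protein-coding gene for 11024 of 23883 (46.2%), of which 10435 were intronic and 589 exonic, and 9008 (37.7%) lay in no annotated gene. The share in genes was higher than for the other xxChIP H1.5 peaks, 41.4%, by 5.12 ± 2.64 percentage points on 21 of 23 chromosomes (permutation adjusted p = 2e-05), and by 2.87 in peaks of 1000 to 3000 bp. Against the peaks shared with xxChIP H1.2 alone it was higher by 8.07 points, and by 6.36 in that length range. It was lower than for the peaks found only in xChIP H1.5, 49.3%, with a difference of -3.40 ± 2.71 points, on 21 of 23 (permutation adjusted p = 2e-05), and of -2.11 in peaks of 1000 to 3000 bp. From the peaks found only in xxChIP H1.2, 47.0%, it differed by -0.786 ± 2.43 (permutation adjusted p = 0.162), and by -1.31 (permutation adjusted p = 0.024) when genes of all classes were counted.

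Exons held 2.47% of the midpoints. This was 1.07 ± 0.811 points above the other xxChIP H1.5 peaks, on 23 of 23 chromosomes, and differed by -2.33 points (SD 1.203) from the peaks found only in xChIP H1.5, lower on 23 of 23 (permutation adjusted p = 2e-05 for both), while the difference from the peaks found only in xxChIP H1.2 was -0.0954 ± 0.860 (permutation adjusted p = 0.656). Counting 1 shared base in place of the midpoint, the 3 exon differences were 2.44, -6.95 and, with a permutation adjusted p of 0.168, -0.489 points. The median distance to the nearest start of a protein-coding gene was 104 kb, against 103, 105 and 93.2 kb in the 3 sets. On the log10 scale only the last difference passed the test, at 0.0686 ± 0.0665 (permutation adjusted p = 2e-05), a 1.17-fold longer distance, and 0.0417 in peaks of 1000 to 3000 bp. The comparison with the other xxChIP H1.5 peaks depended on its partner: 0.00594 against all of them, 0.0584 in peaks of 1000 to 3000 bp and -0.170 against those shared with xxChIP H1.2 alone. Along genes of at least 50 kb the peaks ran with 9.12 to 10.6% of them in each 10% of the gene from its start. All xxChIP H1.5 peaks under 20000 bp ran alike, with 8.87 to 10.5%.

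Promoters, taken as 1000 bp on either side of the start of a protein-coding gene, held 115 midpoints (0.482%, Wilson interval 0.401 to 0.578). This share was above the 0.255% of the other xxChIP H1.5 peaks by 0.251 ± 0.235 points on 19 of 23 chromosomes (permutation adjusted p = 7.5e-05), which was lost with 500 bp on either side (0.0740, permutation adjusted p = 0.0913) and was 0.493 with 2500 bp. It was below the 0.956% of the peaks found only in xChIP H1.5 with a difference of -0.615 ± 0.731, on 19 of 23 (permutation adjusted p = 7.2e-05); it was -0.320 with 500 bp, -1.58 with 2500 bp and -1.32 for promoters sharing 1 base with a peak. The excess of 0.186 ± 0.289 over the peaks found only in xxChIP H1.2 (permutation adjusted p = 0.0075) was lost in peaks of 1000 to 3000 bp and with either other promoter width. Of all 20098 protein-coding promoters 120 held a midpoint, 0.597%. The longest such peaks lay at PSG11 (8898 bp), at AC008394.1 (5920 bp), at ZNF726, a zinc finger gene (5737 bp), at LRAT, the acyltransferase that stores retinol as its ester (5049 bp), at TSPOAP1 (4873 bp), at OPN5, an opsin (4708 bp), at CTCFL, the germline paralog of CTCF (4443 bp), at PTPN20B (4250 bp), at GLCE, an epimerase of heparan sulfate synthesis (3944 bp), and at NOS2, the inducible nitric oxide synthase (3775 bp). Their GC content ran from 34.7% at AC008394.1 to 58.6% at CTCFL.

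Across the chromosomes the peaks made up 18.3 ± 4.82% of the xxChIP H1.5 peaks (SD, n = 23 chromosomes), from 12.8% on chromosome 6 to 29.6% on X, with 28.3% on chromosome 16 and 25.2% on 17. Per Mb of known sequence they numbered 8.42 in all, from 6.63 on chromosome 6 to 11.7 on X. How much of a chromosome the 3 other lists covered bears on the rule: they covered 32.5% of X, 41.7% of chromosome 16 and 45.1% of 17, against 52.7% of chromosome 6. Chromosome 19, the most covered at 55.4%, nevertheless had a share of 18.4%, near the mean over chromosomes. X also had the highest share for the peaks found only in xxChIP H1.2 (33.3%) and only in xChIP H1.5 (35.1%).

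**Figure D4:**
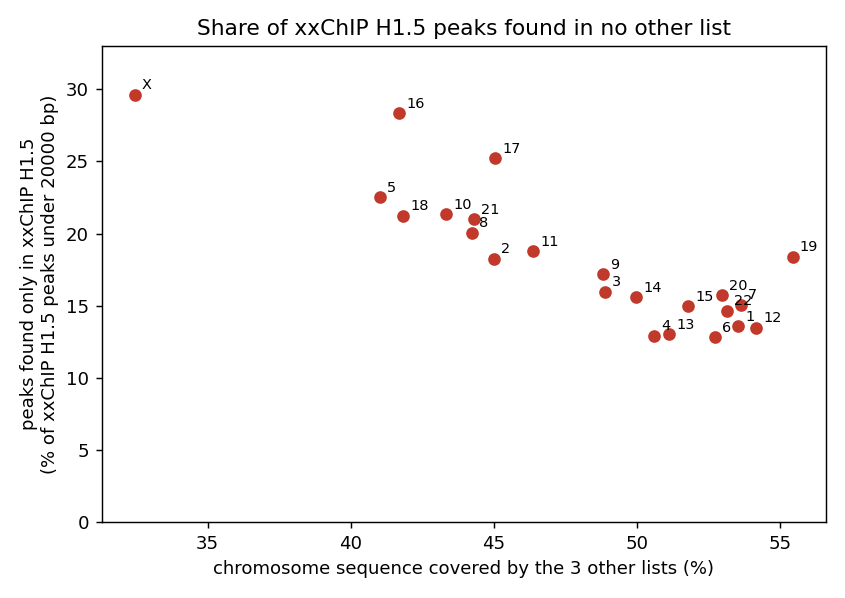
Share of xxChIP H1.5 peaks under 20000 bp found in no other list (%, vertical axis) against the share of the chromosome that the 3 other lists cover (%, horizontal axis); each point is a chromosome. X stands at the upper left with 29.6% at 32.5% covered, chromosomes 16 and 17 lie above others with like coverage, and so does chromosome 19 at the far right, with 18.4%.

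The density also varied with the base composition of the surroundings. Windows of 100 kb with 36 to 44% GC held 8.95 to 9.39 of the peaks per Mb, those under 36% held 8.06 and those of at least 48% held 5.08. The peaks found only in xxChIP H1.2 had a like course, with 9.97 to 11.2, 9.91 and 4.63 per Mb in these windows. Over the same range the other xxChIP H1.5 peaks fell from 47.1 to 28.3 per Mb and the peaks found only in xChIP H1.2 rose from 6.42 to 24.4. Windows with 3 or more gene starts held 5.42 per Mb and those with none 9.15, and the other xxChIP H1.5 peaks likewise went from 42.8 with none to 28.7, so the share of unshared peaks moved only from 17.6% to 15.9%. Among windows of 1 Mb that held any, the median was 8 peaks. The fullest, chr16:6000001-7000000, held 33 of its 71 xxChIP H1.5 peaks, and the next on that chromosome, chr16:7000001-8000000, held 26 of 58, and both overlap RBFOX1. The others among the 10 fullest were chrX:5000001-6000000 (29), chr10:4000001-5000000 and chr10:61000001-62000000 (25 each), chr17:11000001-12000000, chr17:67000001-68000000 and chrX:4000001-5000000 (23 each), and chr3:64000001-65000000 and chr5:88000001-89000000 (22 each).

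Genes are long and short, and the number of peaks in a gene followed its length. At least 1 midpoint lay in 5081 of 20098 protein-coding genes, 25.3%, but in 2.18% of genes under 10 kb and in 99.4% of those of at least 500 kb. The peaks numbered 8.41 per Mb of gene body over all genes, and 10.8 per Mb in the genes of at least 500 kb. The 10 genes with most were all over 1 Mb long. RBFOX1, a neuronal splicing factor at chr16:5289803-7763342, held 65 in 2474 kb, which was 41.9% of its 155 xxChIP H1.5 peaks, against 32 peaks found only in xxChIP H1.2 and 31 only in xChIP H1.5. CDH13, a cadherin anchored by a lipid, held 29, against 12 and 13. ASIC2, an acid-sensing channel, held 22, against 11 and 7. These 3 genes lie on chromosomes 16 and 17, where the share was 28.3% and 25.2%.

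The other genes among the 10 held between 23 and 37. DMD, the dystrophin gene on X, held 37, against 39 and 38. CSMD1 held 35, against 40 and 44. The synaptic adhesion genes NRXN3 and CNTNAP2 held 34 and 30, WWOX, an oxidoreductase gene at a fragile site, held 26, against 23 and 15, PTPRD, a receptor phosphatase, held 24 and MACROD2 held 23. As a share of the gene's xxChIP H1.5 peaks these were 47.3% in WWOX, 43.0% in NRXN3, 41.1% in DMD, 38.9% in CSMD1, 21.0% in CNTNAP2, 20.9% in MACROD2 and 18.5% in PTPRD, against 19.1% over all genes. Their chromosomes differed in this share. It was 28.3% on chromosome 16 (WWOX) and 29.6% on X (DMD). It was 15.6% on 14 (NRXN3), 20.1% on 8 (CSMD1) and 15.1% on 7 (CNTNAP2). On 20 (MACROD2) and 9 (PTPRD) it was 15.7% and 17.2%. The genes were picked for their counts, so the values are a description.

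**Figure D5:**
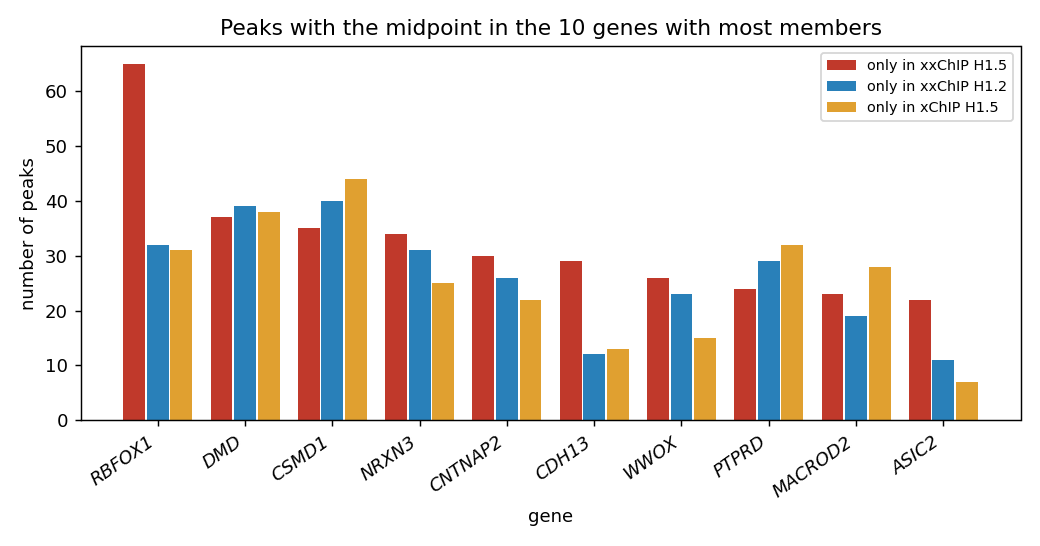
Number of peaks with the midpoint in each of the 10 genes that hold most of the peaks found only in xxChIP H1.5 (red), beside the peaks found only in xxChIP H1.2 (blue) and only in xChIP H1.5 (orange). RBFOX1 stands at 65 against 32 and 31, while in DMD the 3 bars are 37, 39 and 38.

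Per Mb of gene body, among genes of at least 100 kb with at least 5 of the peaks, CCDC6 was the densest with 6 in 118 kb (50.9 per Mb), and these were all 6 of its xxChIP H1.5 peaks. SMOC1, a secreted matrix protein, held 8 of 10, APC, the brake on beta-catenin in Wnt signalling, held 6 of 7, PLA2R1 held 5 of 7, and VRK1, a nuclear kinase, held 6 of 11. RHOBTB1, CDC73, NDUFA10, BCAS1 and SGPP2 each held 5, of 9, 12, 10, 13 and 10. Of the peaks found only in xxChIP H1.2, CCDC6, SMOC1 and APC held 4 each, PLA2R1 3, and VRK1 and RHOBTB1 2 each. CDC73 and SGPP2 held 1 each, and NDUFA10, a subunit of respiratory complex I, and BCAS1 held 0. These genes were picked for their density, so the values are a description.

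Genes of the myeloid lineage were read beside this background. None of the 10 azurophil granule genes, such as MPO and ELANE, held a midpoint; they are short, with a median of 6.39 kb, and held 2 xxChIP H1.5 peaks in all. Of 18 myeloid transcription factor genes 8 held one (44.4%, against 25.3% of all genes); their median length was 51.7 kb against 27.3 kb for all genes, and 38.2% of genes of 50 to 100 kb held one. They had 30 peaks at 10.8 per Mb, or 32.6% of the xxChIP H1.5 peaks in these genes against 19.1% over all genes. RUNX1, required for the first blood stem cells, held 13 of those 30 in 1217 kb. RUNX2 held 4, FLI1 and MEF2C 3 each, ERG, ETV6 and IKZF1 2 each and CBFB, the partner of the RUNX proteins, 1. In MEF2C all 3 and in IKZF1 both of the xxChIP H1.5 peaks were of this kind, and in FLI1 3 of 4. The same genes held peaks found only in other lists too: RUNX1 had 16 found only in xxChIP H1.2 and 14 only in xChIP H1.5, and ETV6 had 10 only in xChIP H1.5. Of 13 leukocyte adhesion and receptor genes, FPR1, a receptor for bacterial formyl peptides, held 2 and CSF2RB, the shared beta chain of cytokine receptors, held 1. That was 15.4% of the listed genes against 25.3% of all genes, and 6.70 peaks per Mb against 8.41. The peaks were 13.6% of the xxChIP H1.5 peaks in these 13 genes, against 19.1% over all genes.

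Among genes known for their work in neurons, 33 of 35 synaptic adhesion and glutamate receptor genes held 313 peaks, at 12.3 per Mb; their median length was 561 kb, a class in which nearly all genes held one. These were 21.9% of their xxChIP H1.5 peaks, against 20.4% in all genes of at least 500 kb. The share was 6.90% in GRIK2 (4 of 58) and 47.1% in CNTNAP5 (16 of 34). NRXN3 held 34, and CNTN2, GRIA2 and NRXN2 held 1 each. The contactins CNTN1, CNTN3, CNTN4, CNTN5 and CNTN6 held 7, 5, 14, 9 and 8. Other adhesion genes were LSAMP with 19, OPCML with 18, LRRTM4 with 15, NTM with 13, CADM2 and NLGN4X with 10 each, CNTNAP4 with 8 and NLGN1 with 6. Of the glutamate receptors, GRIN2A held 9, GRID1 8, GRIK1 7, GRIA1 and GRM7 6 each, GRM5 and GRM8 5 each, GRIA4 4, and GRIA3 and GRIN2B 3 each.

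Gene families were read beside all protein-coding genes, of which 25.3% held a peak, at 8.41 per Mb. Over all genes 19.1% of the xxChIP H1.5 peaks were of this kind. The share of genes with a peak moved with gene length. Protocadherins held a peak in 45 of 65 genes and 28.8% of their xxChIP H1.5 peaks were of this kind, at 15.3 per Mb; cadherins held one in 16 of 23 genes, at 14.2 per Mb. Clustered protocadherin genes overlap, so a peak can count for several of them. Olfactory receptors held one in 18 of 414 genes (4.35%), at 7.91 per Mb. ZNF genes held one in 125 of 509 (24.6%), at 9.08 per Mb, and solute carriers in 102 of 373 (27.3%), at 7.48. ZNF genes and solute carriers lay near the values over all genes, as did olfactory receptors in density. The short genes stood lowest: 1 of 55 keratin genes, 1 of 87 genes for cytosolic ribosomal proteins and 1 of 64 replication-dependent histone genes held a midpoint. The median gene length was 105 kb for protocadherins and 140 kb for cadherins, against 1.97 kb for olfactory receptors, 7.10 kb for keratins and 5.55 kb for ribosomal proteins.

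The longest peaks were mostly intergenic. The longest measured 19822 bp. Behind it and chr2:195469669-195488935 (19267 bp, 961 kb from SLC39A10) stood a peak of 18824 bp that overlaps RP1 with its midpoint outside, a peak of 18123 bp 49.3 kb from RAPGEF5 and one of 17287 bp 400 kb from PDHA2. A peak of 15972 bp on chromosome 17 covered parts of KRT25 and KRT26, keratins of the hair follicle, with its midpoint between them. Of the 10 longest only one had its midpoint in a gene, the 15368 bp peak in an intron of CACNA1E, a calcium channel gene. The rest were of 15612 bp (614 kb from ZIC4), 15126 bp (on X, 974 kb from RPA4) and 14889 bp (122 kb from JAG1, a Notch ligand). GC content in the 10 ran from 34.6% to 43.1%.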

How the data were processed

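Cross-linked chromatin of HL-60/S4 cells was immunoprecipitated with anti-H1.2 or anti-H1.5 and sequenced in paired ends. The authors aligned the reads to hg19 with Bowtie2, keeping unique reads. They called peaks in each replicate with MUSIC under its default settings and joined the 3 resulting sets. The merged xxChIP H1.5 list holds 138491 peaks, well above the number the paper gives per replicate. Many of its peaks must therefore come from a single replicate, and which ones cannot be told. The deposited values are a chromosome, a start and an end per peak, read as BED, with no count, score or signal. Depth is therefore unknown.

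Overlaps, gaps, GC content, CpG, motifs and gene positions were computed with Python 3.11.15, numpy 2.4.6, pandas 2.3.3 and samtools 1.23.1 from GRCh37 and GENCODE v44lift37. Sets were compared by a sign-flip permutation over 23 chromosomes (100000 resamples), checked on simulated data, with Benjamini-Hochberg adjustment over 18 tests at 0.05. Named genes were the 10 with most peaks, the 10 densest, those of listed families, those under the 10 longest peaks and those of the 10 longest promoter peaks. The members, gene lists and tests were chosen with earlier results of these data known. Some genes and sequences that these rules name are not reported here.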

Additional observations from a re-analysis of the deposited data

How the results depend on the processing

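Sharing defined as at least 50% of the length covered by the other lists would give 41854 peaks in place of 23883; the limits of length and gap gave 20353 to 23886. Of 96 alternatives to the 18 comparisons, 86 kept their side of the threshold and, but for 1 uncalled distance to a gene start that turned from 0.000984 to -0.000594, their direction; 6 lost the call, 2 gained one and 2 reversed. In peaks of 1000 to 3000 bp, CpG against the other xxChIP H1.5 peaks (0.0610 per kb) and the promoter share against the peaks found only in xxChIP H1.2 (0.143 points) lost the call, and the log10 distance to a gene start against the other xxChIP H1.5 peaks gained one (0.0584). That distance reversed against the peaks shared with xxChIP H1.2 alone (-0.170), and with the length limit added as well (-0.140), a setting chosen after seeing the data, as was the GC content minus that of the 10000 bp on each side, which changed no call but lowered the GC difference from the peaks found only in xxChIP H1.2 to 0.5996. CpG against the peaks found only in xChIP H1.5 lost the call at a gap of at least 1000 bp (0.511). Promoters of 500 bp on either side lost the calls against the other xxChIP H1.5 peaks (0.0740) and the peaks found only in xxChIP H1.2 (0.0185), and 2500 bp lost the latter (0.228). Counting all annotated genes gained the call against the peaks found only in xxChIP H1.2 (-1.31). The causes were not tested. No paired analysis was possible because the 3 replicates were joined before deposit, and no replicate could be left out for the same reason. A comparison of masked repeats was not run, as the reference marks 0 bases in lower case.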
